A study of Homo sapiens with 24 samples.

Results

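The 10 glycolytic enzyme transcripts described here were HK2, GPI, PFKM, PFKP, ALDOA, GAPDH, PGK1, PGAM1, ENO1 and LDHA. They were named by gene symbol, from a list drawn up with earlier results of these data known, and were matched by Ensembl ID. All 10 were found among the 61541 genes of the 48 h table and the 19836 genes of the 72 h table, and all 10 passed the filter on low values at both times. The cells were labelled U2932, a human line derived from diffuse large B-cell lymphoma. RNA-seq compared cells given a nucleic acid reagent against MYC with cells given phosphate-buffered saline (PBS). The 48 h groups were 4 libraries labelled PNA2, 4 labelled siRNA and 6 PBS controls. The 72 h groups were 5 libraries labelled PNA2 and 5 PBS controls. PNA2 is a gamma-modified peptide nucleic acid, a polymer that carries bases on a peptide-like chain and pairs with DNA or RNA. The labels give its dose as 8 mM, a unit that is doubtful. The siRNA against MYC was given at 500 nM by electroporation. No electroporated control was named, so siRNA and electroporation cannot be told apart. In the cell line field the 4 siRNA libraries carry names whose final digit departs from U2932, although their treatment field gives U2932. Nothing in the labels says that replicates were grown apart, so p-values measure only the spread between these libraries.

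Glycolysis splits glucose into pyruvate in the cytosol and yields ATP and NADH. Its early enzymes phosphorylate and split the sugar, and its later enzymes recover ATP and form pyruvate, which LDHA reduces to lactate while regenerating NAD+. Proliferating B cells and lymphomas use the pathway heavily, and several of its genes are known targets of the transcription factor MYC, which binds as a MYC-MAX dimer to the E-box sequence CACGTG.

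Promoters of the members are shown because both reagents were directed at MYC. Sequences were those of RefSeq on GRCh38.p14, from 250 bases before to 50 bases after each listed start. All 10 members matched, with 23 listed starts. CACGTG reads the same on both strands and was searched for exactly. It occurred in the promoter at the first listed start of 2 members, GAPDH and LDHA, and at any listed start of 4, with HK2 and ALDOA added by their second start. Over all 27305 promoters at a first listed start, 7.43% held CACGTG. That share is for first starts only and does not apply to the count of 4. No share of genes with CACGTG at any listed start was computed. The shorter core ACGTG, searched on both strands and contained in every CACGTG, was in 6 of the 10 first listed promoters, against 21.6% of all promoters. GCGTG, which with ACGTG makes up the core of hypoxia response elements, was in 4 of 10, against 36.3% of all. These matches describe letters and not binding. The first promoter below is that of the enzyme lowered in the siRNA libraries (HK2, second listed start, chr2:74834920-74835219, plus strand). The first listed start of HK2 had no CACGTG. A pair with the motif at the first start follows (GAPDH, chr12:6535014-6535313, plus strand, and LDHA, chr11:18394313-18394612, plus strand). The last had none of these motifs at its only listed start (PGAM1, chr10:97427568-97427867, plus strand). The annotated PGAM1 gene begins at 97426160, before the bases shown, and the sequence around that position was not searched. Capitals mark CACGTG. It began 194 and 149 bases before the HK2 start, 81 before the GAPDH start, and 185 and 87 before the LDHA start.
HK2: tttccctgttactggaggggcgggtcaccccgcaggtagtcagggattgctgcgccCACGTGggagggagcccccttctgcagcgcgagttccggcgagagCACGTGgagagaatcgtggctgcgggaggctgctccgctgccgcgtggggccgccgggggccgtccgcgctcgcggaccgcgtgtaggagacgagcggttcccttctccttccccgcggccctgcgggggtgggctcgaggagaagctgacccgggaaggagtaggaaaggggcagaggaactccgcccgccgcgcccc
GAPDH: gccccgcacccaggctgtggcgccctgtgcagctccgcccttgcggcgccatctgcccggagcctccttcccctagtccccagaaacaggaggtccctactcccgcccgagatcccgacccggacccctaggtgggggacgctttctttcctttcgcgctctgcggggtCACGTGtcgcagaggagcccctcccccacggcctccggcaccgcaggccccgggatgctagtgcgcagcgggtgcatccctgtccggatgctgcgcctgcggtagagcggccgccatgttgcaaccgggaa
LDHA: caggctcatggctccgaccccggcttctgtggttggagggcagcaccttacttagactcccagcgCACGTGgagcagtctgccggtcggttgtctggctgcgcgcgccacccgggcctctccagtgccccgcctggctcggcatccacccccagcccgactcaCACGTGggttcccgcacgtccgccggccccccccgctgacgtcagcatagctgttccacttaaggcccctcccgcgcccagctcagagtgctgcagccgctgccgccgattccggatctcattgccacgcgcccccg
PGAM1: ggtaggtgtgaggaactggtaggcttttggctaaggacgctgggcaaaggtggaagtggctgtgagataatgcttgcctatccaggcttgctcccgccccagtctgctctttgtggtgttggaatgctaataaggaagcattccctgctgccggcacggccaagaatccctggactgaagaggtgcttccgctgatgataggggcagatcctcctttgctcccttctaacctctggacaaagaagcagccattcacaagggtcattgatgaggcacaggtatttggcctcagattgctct

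Summed values at 48 h came to 14.88 M to 16.03 M in a library labelled PNA2, 12.63 M to 16.17 M in an siRNA library and 11.12 M to 14.46 M in a PBS library. At 72 h the recovered reads came to 11.25 M to 13.69 M (PNA2) and 8.22 M to 13.28 M (PBS) per library. MYC, the target, fell in the siRNA libraries (3576 to 4159, against 5348 to 7721 in PBS; log2 fold change -0.82, SE 0.11, limma with Benjamini-Hochberg adjusted p = 0.000396). It was not lower in the libraries labelled PNA2 at 48 h (7198 to 8997, against the same PBS libraries; log2 fold change 0.24, adjusted p = 0.114). At 72 h MYC ran from 460 to 2032 in the libraries labelled PNA2 and from 826 to 2845 in PBS (log2 fold change -0.18, adjusted p = 0.794). The PNA2 label is therefore used below as a label and not as a measured knockdown. All 8 B cell markers were present in every group, summing to 51005 to 90634 in libraries labelled PNA2, 73581 to 79215 in siRNA and 64052 to 74633 in PBS at 48 h, and at 72 h to 65685 to 82948 in libraries labelled PNA2 and 50843 to 57366 in PBS. The 8 T and NK cell markers summed to 27.9 to 51.0 in libraries labelled PNA2 and 8.6 to 33.4 in PBS at 72 h, with 6 of 8 at 0 in each group. At 48 h they summed to 15.6 to 72.3 in libraries labelled PNA2, 11.1 to 21.7 in siRNA and 1.1 to 23.2 in PBS. The 1 of them tested at 48 h, CD8A, was called higher in libraries labelled PNA2 (2.12, limma adjusted p = 0.0338) and in siRNA (2.15, adjusted p = 0.0486). Its groups overlapped in both comparisons. These values are near the floor: the highest mean of any of the 8 was 30.7 in PNA2, 12.8 in siRNA and 8.61 in PBS. Myeloid and erythroid markers summed to at most 45.0 at either time. Stroma and epithelium markers summed to 197 to 436 in libraries labelled PNA2, 247 to 271 in siRNA and 170 to 262 in PBS at 48 h, and to 93.3 to 162 (PNA2) and 104 to 136 (PBS) at 72 h. The part of these marker levels in the results below was not tested. Tied values placed PBS 1, 2 and 4, PNA2 1 and 2 and all siRNA libraries of 48 h in batch A, and PBS 3, the unnumbered PBS controls 6 and 7, and PNA2 3 and 4 in batch B. Library PNA2 2 of 48 h stood apart for these enzymes: all 10 lay below the PBS mean of its batch, by a median of -0.54 on the log2 scale.

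Per kilobase of exon, GAPDH was the most abundant member in every group and ENO1 the next. In PBS at 48 h GAPDH stood at 25356 ± 1859 and ENO1 at 13062 ± 1398 (SD, n = 6), in TMM-scaled value per kilobase. They were followed by LDHA (2334), PGAM1 (1717), PGK1 (1615), GPI (1159), PFKP (578), PFKM (291), HK2 (277) and ALDOA (127). In that order PGAM1 and PGK1 overlapped between libraries, as did PFKM and HK2, and no other neighbours did. In PBS at 72 h the order, in normalized reads per kilobase, was GAPDH (20782), ENO1 (8190), ALDOA (3316), LDHA (1776), PGK1 (1130), PGAM1 (964), GPI (859), PFKP (477), HK2 (172) and PFKM (123). There only ALDOA and LDHA overlapped among neighbours. The enzymes of the last steps thus had higher transcript levels than HK2 and the phosphofructokinases. Together the 10 members took 0.711% to 0.803% of the total in libraries labelled PNA2, 0.791% to 0.835% in siRNA and 0.767% to 0.859% in PBS at 48 h. At 72 h they took 0.952% to 1.10% in libraries labelled PNA2 and 0.769% to 0.918% in PBS, ranges that did not overlap. GAPDH alone took 0.512% to 0.601% in those libraries labelled PNA2 and 0.372% to 0.476% in those PBS libraries. It thus made up a large part of the summed share. In PNA2 5 of 72 h the members took 0.970% and GAPDH 0.564%, against 0.868% and 0.414% in PBS 5. Without GAPDH the 72 h ranges therefore overlapped, and no test was run on that share. In bulk RNA, fewer cells of a kind and less RNA per cell cannot be told apart.

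ALDOA, the aldolase that splits fructose 1,6-bisphosphate, changed place between the tables. Its mean over all libraries was 320 at 48 h and 8033 at 72 h, while the other members' 72 h means were 0.447 to 0.999 times their 48 h means, in tables normalized separately. GENCODE 29 places 1636 of the 2407 exon bases of ALDOA (68.0%) inside ENSG00000285043 on the same strand (GRCh38 chromosome 16, 30053090 to 30070420). That overlapping gene is in the 48 h table, with values up to 20.7, and is not in the 72 h table. LDHB, the other main lactate dehydrogenase subunit, showed the same arrangement, with 891 of 1586 exon bases (56.2%) shared with ENSG00000285854 and means of 224 at 48 h and 10561 at 72 h. ALDOA and LDHB at 48 h are therefore uncertain, and the cause was not tested. Pseudogenes, found by symbol, had low values at 48 h. The 65 listed for GAPDH summed to 0.192% of its own 48 h mean, and the 13 for PGAM1 to 0.989% of its own. How reads that fit both a member and a pseudogene were counted was not examined.

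At 72 h 5 of the 10 enzymes passed the test in the libraries labelled PNA2. GAPDH, PGK1, PGAM1 and ENO1, which catalyse consecutive steps from glyceraldehyde 3-phosphate to phosphoenolpyruvate, rose, although GAPDH and ENO1 had negative differences under quantile normalization (-0.11 and -0.16). HK2, the hexokinase that traps glucose at the entry of the pathway, fell. Among all 11985 genes tested, 23.8% were called, 12.1% higher and 11.7% lower. The median log2 fold change of the members was 0.11, against -0.01 over all genes. It was -0.11 under quantile normalization, 0.05 without PNA2 3, 0.22 without PNA2 5 and 0.17 without PBS 5.

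GAPDH, which oxidises glyceraldehyde 3-phosphate and makes NADH, stood at 64375, 63022, 75998, 63738 and 67587 normalized reads in PNA2 1 to 5, against 41539, 53569.6, 42807, 47157 and 46024 in PBS 1 to 5. Every library labelled PNA2 exceeded every PBS library, as for 10% of all genes at 72 h. The log2 fold change was 0.54 (SE 0.08, 95% CI 0.37 to 0.70, limma adjusted p = 0.00131), and under quantile normalization -0.11 (adjusted p = 0.324).

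PGK1, which makes the first ATP of the later steps, had 6796, 6854, 7267, 6441 and 6823 normalized reads in PNA2 1 to 5. In PBS 1 to 5 it had 5642, 5577, 5788, 5378 and 5779. The groups did not overlap, and PNA2 4 was the lowest of its group. The log2 fold change was 0.28 (SE 0.05, 95% CI 0.17 to 0.39, limma adjusted p = 0.00365). PGAM1, the mutase that moves the phosphate of 3-phosphoglycerate, had 2225, 2293, 2411, 2189 and 2112 in PNA2 1 to 5, against 1712, 1702, 1839, 1735 and 1834 in PBS 1 to 5. Its groups did not overlap either, and its within-group spread was small (coefficient of variation 5.02% in PNA2 and 3.8% in PBS). The log2 fold change was 0.35 (SE 0.06, 95% CI 0.22 to 0.48, limma adjusted p = 0.0026).

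ENO1, the enolase that forms phosphoenolpyruvate, had 26705, 25093, 28959.5, 23155 and 22486 normalized reads in PNA2 1 to 5 and 18769.7, 20966, 21193, 17977 and 19534.5 in PBS 1 to 5. All PNA2 values lay above all PBS values, with PNA2 4 and 5 nearest to PBS. The log2 fold change was 0.36 (SE 0.08, limma adjusted p = 0.00778), and under quantile normalization -0.16 (adjusted p = 0.0295). HK2 had 855, 837, 717, 863 and 898 normalized reads in PNA2 1 to 5, against 1031, 1109, 985, 995 and 993 in PBS 1 to 5. Every library labelled PNA2 was below every PBS library, as for 9.18% of all genes, with PNA2 3 the farthest. The log2 fold change of HK2 was -0.30 (SE 0.08, 95% CI -0.46 to -0.13, limma adjusted p = 0.0161).

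The other 5 enzymes did not pass the test at 72 h, and their groups overlapped. GPI, which isomerises glucose 6-phosphate, averaged 4350 ± 546 in libraries labelled PNA2 and 3842 ± 216 in PBS (SD, n = 5 each; log2 fold change 0.17, adjusted p = 0.178), and it passed without PNA2 4 (0.25, limma adjusted p = 0.0234). The phosphofructokinase subunits, which catalyse the committed step, had log2 fold changes of -0.14 for PFKM (95% CI -0.33 to 0.06) and -0.18 for PFKP (95% CI -0.33 to -0.02, adjusted p = 0.0892). PFKP passed without PNA2 3 (-0.21, limma adjusted p = 0.0443). ALDOA was at 0.04 (95% CI -0.32 to 0.41). LDHA had 6810, 4281, 7033, 7144 and 3027 normalized reads in PNA2 1 to 5 and 4227, 4785, 4787, 7206 and 5362 in PBS 1 to 5. Its libraries labelled PNA2 held both the lowest value and 3 of the 4 highest, and the log2 fold change was 0.05 (95% CI -0.47 to 0.56). The calls of HK2, PGK1 and PGAM1 were kept under all 18 alternatives, among them TMM scaling, edgeR and DESeq2 on the recovered reads, and leaving out each library. Those of GAPDH and ENO1 were kept under 17. Under quantile normalization alone, GAPDH was not called and had a negative difference (-0.11), and ENO1 was called lower (-0.16).

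**Figure D1:**
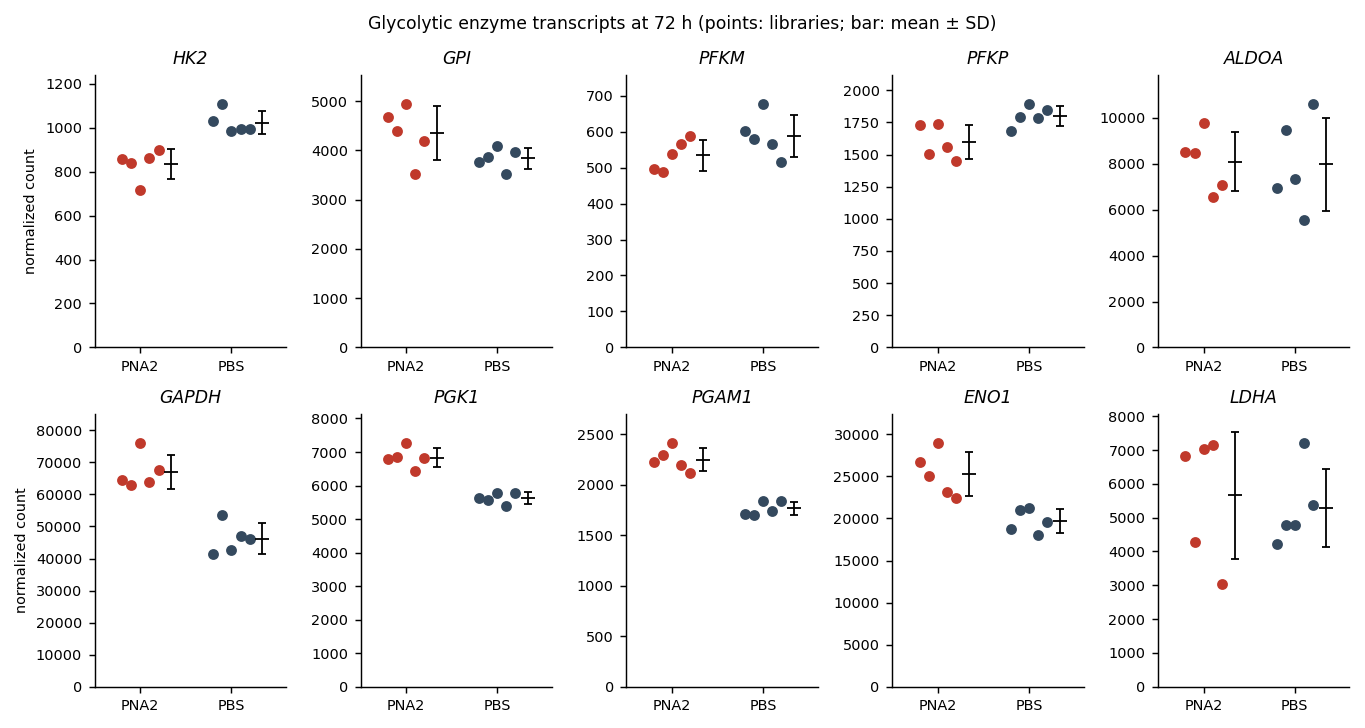
Normalized reads of each of the 10 enzymes in the 5 libraries labelled PNA2 (left in each panel) and the 5 PBS libraries (right) at 72 h, 1 point per library with the group mean ± SD. GAPDH, PGK1, PGAM1 and ENO1 points of PNA2 lie above all PBS points and HK2 points below them, and the GAPDH and ENO1 differences turned negative under quantile normalization.

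At 48 h the libraries labelled PNA2 showed no enzyme called higher and 3 called lower: PFKM, PFKP and PGAM1. Of all 14136 genes tested at 48 h, 16.2% were called in this comparison, 8.11% higher and 8.04% lower (1147 and 1137 genes, against 2014 and 167 without rescaling). The members' median log2 fold change was -0.16, against 0.00 over all genes. It was -0.34 within batch A, 0.02 within batch B, -0.04 without PNA2 2 and 0.04 without rescaling. All 3 calls depended on scaling: without rescaling by TMM, where the median of all genes stood at 0.19, the differences were -0.16, -0.13 and -0.06 and none passed. Without PNA2 2 the calls were PFKM and PFKP.

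PFKP, the platelet-type phosphofructokinase subunit, stood at 2015, 1457, 1703 and 1808 TMM-scaled units in PNA2 1 to 4. In the 6 PBS libraries it ran from 2097 through a median of 2165 to 2295. It was the only member whose PNA2 and PBS libraries did not overlap at 48 h, where 4.87% of all genes had every PNA2 value lower and 5.2% every one higher. Its log2 fold change was -0.33 (SE 0.08, 95% CI -0.49 to -0.17, limma adjusted p = 0.00987). Within batch A the difference was -0.34 (adjusted p = 0.0789) and within batch B -0.32 (adjusted p = 0.0400). Against the PBS mean of their batch, PNA2 1 and 2 were at -0.11 and -0.58, and PNA2 3 and 4 at -0.36 and -0.28. The likeness of both batch values thus depended on PNA2 2. The call was lost under 4 of 24 alternatives, among them no rescaling and the replicate block (-0.32, limma adjusted p = 0.0604).

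PFKM, the muscle-type subunit, stood at 941, 959, 1186 and 1269.6 in PNA2 1 to 4, against 1127 to 1575 in PBS with a median of 1406. PNA2 1 and 2, both of batch A, were below all PBS libraries, and PNA2 3 and 4, of batch B, were within their range. PFKM fell by 0.36 on the log2 scale (SE 0.10, limma adjusted p = 0.0258), with -0.64 within batch A (adjusted p = 0.00411) and -0.07 within batch B (adjusted p = 0.729). The call was lost under 9 of 24 alternatives, among them leaving out PNA2 1, PBS 2 or PBS 4 (-0.29 to -0.33), fitting only the groups compared (-0.36, adjusted p = 0.0747) and using numbered libraries only (-0.37, adjusted p = 0.0646).

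PGAM1 stood at 3282, 2247, 2629 and 2407 in PNA2 1 to 4, against 2862 to 3492.5 in PBS with a median of 3151. PNA2 1 lay within the PBS range and the other 3 below it. PGAM1 fell by 0.26 on the log2 scale (SE 0.08, limma adjusted p = 0.0447), and the values within the batches were -0.28 and -0.25, neither past the threshold. Leaving out any library but PNA2 1 lost the call, with differences between -0.15 without PNA2 2 and -0.29 without PNA2 3.

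The remaining 7 enzymes did not pass the test in this comparison. HK2 had 1595, 1306, 1708 and 1668 in PNA2 1 to 4, against 1161 to 1976 in PBS with a median of 1645. Its pooled log2 difference of -0.06 (95% CI -0.31 to 0.20) joined batches that went opposite ways, with -0.38 (adjusted p = 0.0384) for batch A and 0.27 (adjusted p = 0.240) for batch B. GPI had a pooled difference of -0.18 (adjusted p = 0.195), with -0.41 (adjusted p = 0.0281) for batch A and 0.05 for batch B. LDHA had 6338, 3433, 6295 and 6451 in PNA2 1 to 4, against 6378 to 8023 in PBS with a median of 6642. PNA2 2 was far below every other library, and the difference was -0.34 (adjusted p = 0.120) with it and -0.09 (adjusted p = 0.351) without it. ENO1 also had its lowest 48 h value in PNA2 2 (23541, against 29817 to 30351 in the other 3 libraries labelled PNA2 and 25557 to 34601 in PBS). Its difference was -0.14 (adjusted p = 0.391). GAPDH (0.04) and PGK1 (-0.09) had adjusted p of 0.802 and 0.492, and GAPDH turned to -0.47 under quantile normalization (adjusted p = 0.000652), where ENO1 was at -0.49 (adjusted p = 0.000200).

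**Figure D2:**
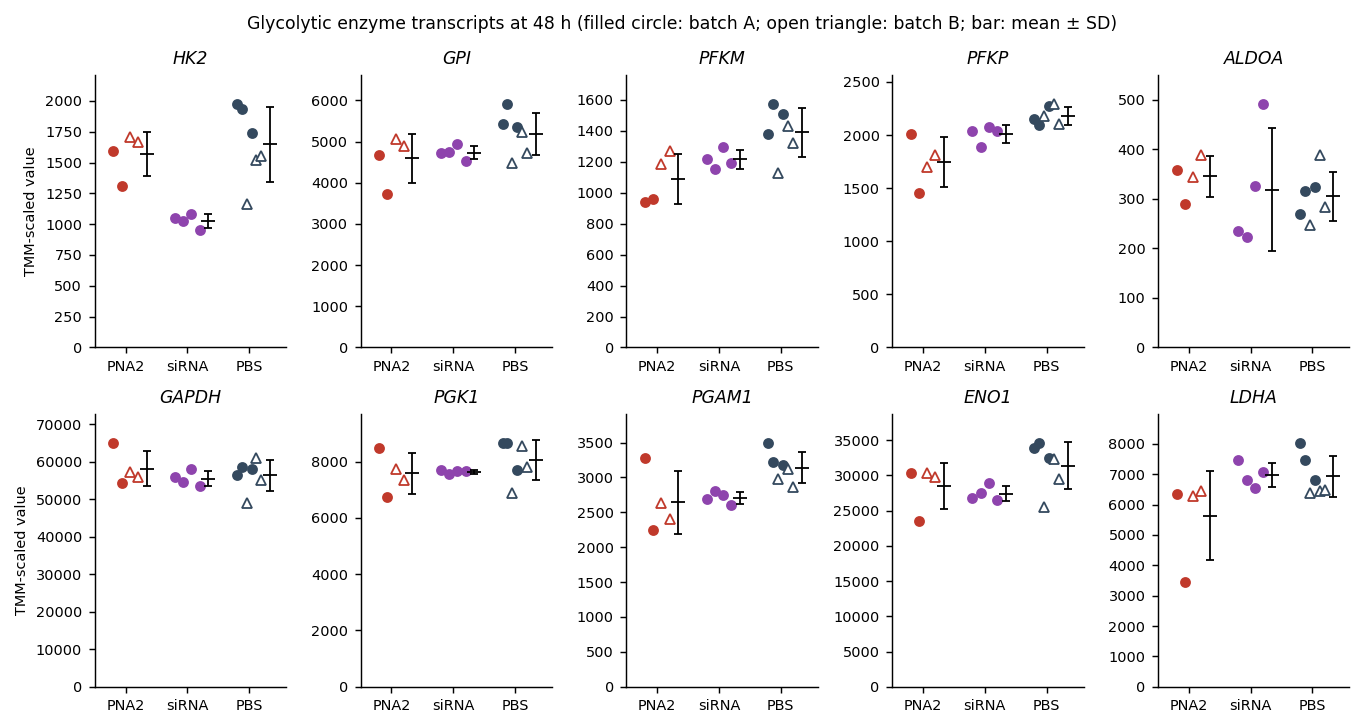
TMM-scaled values of the 10 enzymes at 48 h in 4 libraries labelled PNA2, 4 siRNA libraries and 6 PBS libraries, from left to right, 1 point per library (filled circles batch A, open triangles batch B) with the group mean ± SD. The 4 HK2 points of siRNA lie below all PBS and PNA2 points, and library PNA2 2 is the lowest LDHA and ENO1 point.

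In the siRNA libraries 1 of the 10 enzymes, HK2, was called, and it was lower. Of the 14136 genes, 17.2% were called, 8.72% higher and 8.52% lower (1233 and 1204 genes, against 2124 and 74 without rescaling), in this comparison, which used the same PBS libraries as PNA2. HK2 stood at 1049.8, 1028, 1085 and 949 in siRNA 1 to 4, against 1161 to 1976 in PBS with a median of 1645. All siRNA libraries lay below all PBS libraries, and also below the 1739 to 1976 of the 3 PBS libraries of their own batch. The log2 fold change was -0.74 (SE 0.13, 95% CI -1.02 to -0.46, limma adjusted p = 0.00204). Within batch A, which holds all siRNA libraries, it was -0.87 (adjusted p = 0.000988). The call was kept under all 23 alternatives, with adjusted p from 6.68e-06 to 0.043.

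The members' median log2 fold change in siRNA was -0.12, against -0.01 over all genes, and it was -0.18 within batch A and 0.11 without rescaling. PGAM1 had 2687, 2808, 2742 and 2599 in siRNA 1 to 4, all below the PBS range of 2862 to 3492.5, and its difference of -0.28 (SE 0.09) missed the threshold (adjusted p = 0.0539). PFKP had 2038, 1889.97, 2074 and 2042, also all below the PBS range of 2097 to 2295, with -0.11 (adjusted p = 0.416). Of all genes, 6.87% had every siRNA value below every PBS value, as HK2, PGAM1 and PFKP did, and 8.61% had every one above, as no member did. ENO1 was at -0.22 (95% CI -0.47 to 0.03), PFKM at -0.18 (95% CI -0.41 to 0.06) and GPI at -0.14 (95% CI -0.36 to 0.08). PGK1 was at -0.10, GAPDH at -0.06, ALDOA at 0.04 and LDHA at 0.04 (95% CI -0.30 to 0.38). PGK1 was tightly grouped in siRNA, at 7548 to 7692, against 6891 to 8662 in PBS. A fit to the siRNA and PBS libraries alone called 5 members lower, namely HK2, GPI, PFKM, PGAM1 and ENO1 (-0.87, -0.23, -0.29, -0.28 and -0.30). That fit called more genes in general, 4644 with 2391 lower, against 2437 with 1204 lower.

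Set directly against siRNA at 48 h, the libraries labelled PNA2 had 1 member called, HK2, and it was higher. Of all genes, 23.5% were called in this contrast, 12% higher and 11.5% lower. The PNA2 values of HK2 (1306 to 1708) all exceeded the siRNA values (949 to 1085), as for 14.2% of all genes, with a log2 difference of 0.69 (SE 0.14, 95% CI 0.39 to 0.99, limma adjusted p = 0.00272) and of 0.49 within batch A (adjusted p = 0.00716). LDHA, at 3433 to 6451 in libraries labelled PNA2 and 6535 to 7458 in siRNA, had every PNA2 value lower, as 13.3% of all genes did. Its difference was -0.38 (adjusted p = 0.128), and -0.04 without PNA2 2. PFKP was at -0.22 (adjusted p = 0.0920), with -0.23 within batch A and -0.34 (adjusted p = 0.0081) without PNA2 1. PFKM was at -0.18 (adjusted p = 0.302), and within batch A it was called lower at -0.35 (adjusted p = 0.0124). The other 6 were between -0.04 and 0.15, with GAPDH and ENO1 at -0.46 and -0.44 under quantile normalization.

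Across the 3 comparisons with PBS, HK2 was lower in siRNA at 48 h and in the libraries labelled PNA2 at 72 h, at -0.74 and -0.30. In the libraries labelled PNA2 at 48 h HK2 was not called, at -0.06 (limma adjusted p = 0.779). In the libraries labelled PNA2, PGAM1 was at -0.26 at 48 h, a call lost under 19 of 24 alternatives, and at 0.35 at 72 h, a call kept under all 18. The times came from tables made differently, and the difference between times was not tested. The extraction text of the labels names 48 h alone for every library, which leaves the 72 h time less certain.

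**Figure D3:**
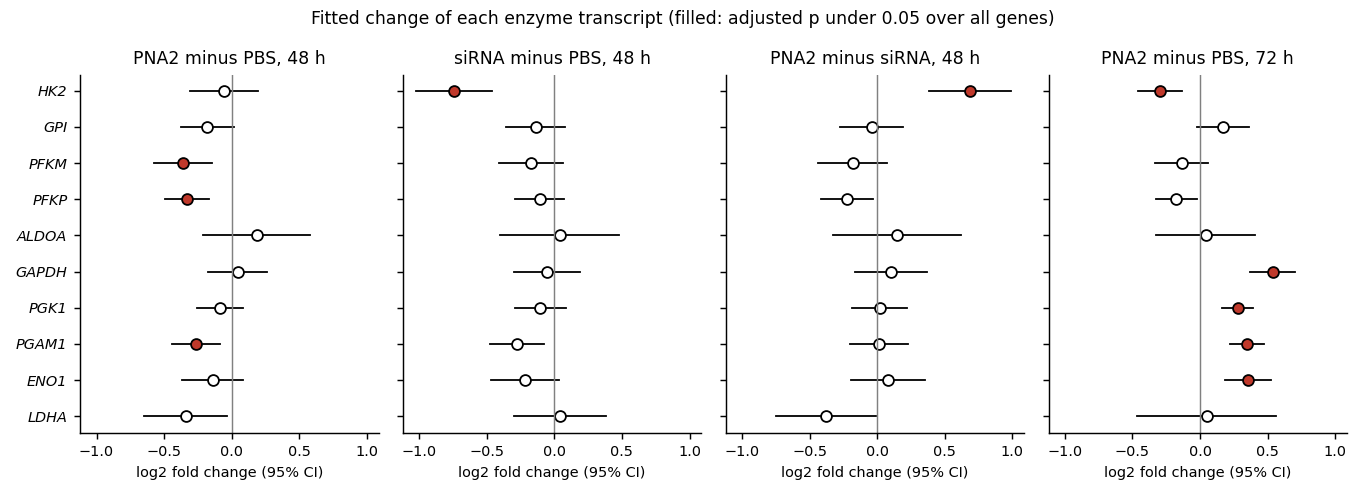
Log2 fold change of each enzyme with its 95% confidence interval in 4 panels, PNA2 against PBS at 48 h, siRNA against PBS at 48 h, PNA2 against siRNA at 48 h and PNA2 against PBS at 72 h, where filled marks passed the limma test. HK2 is at -0.06, -0.74, 0.69 and -0.30 in these panels, and GAPDH (0.54) and ENO1 (0.36) at 72 h had negative values under quantile normalization.

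Isozyme choice was described as each member's share of its step, from levels per kilobase. HK2 made up 48.3% ± 2.01 of HK1 plus HK2 in siRNA (SD, n = 4) and 59.9% ± 3.25 in PBS of batch A (n = 3), a difference of -11.6 points. The 2-sided exact permutation p was 0.0286 over 35 arrangements, the smallest possible, and 0.09 after Benjamini-Hochberg adjustment over 9 such tests. At 72 h the HK2 share was 41.1%, 38.7%, 35.4%, 40.0% and 43.1% in PNA2 1 to 5, against 51.4%, 48.3%, 46.4%, 45.3% and 47.5% in PBS 1 to 5. These groups did not overlap, with a difference of -8.13 points (exact permutation p = 0.00794 over 252 arrangements, also the smallest possible, adjusted p = 0.0714). HK1 itself, the hexokinase of most tissues, was at 0.18 on the log2 scale at 72 h (adjusted p = 0.0969). At 48 h the HK2 share was 58.2% ± 1.57 in libraries labelled PNA2 and 57.7% ± 3.55 in PBS (n = 4 and 6, exact permutation p = 0.74).

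PFKP made up 33.2% ± 0.807 of the 3 phosphofructokinase transcripts PFKL, PFKM and PFKP in libraries labelled PNA2 at 48 h and 36.4% ± 2.06 in PBS (n = 4 and 6). The difference of -3.16 points had an exact permutation p of 0.03 within batches and 0.09 after adjustment. It was -0.07 points in siRNA and -1.25 points in libraries labelled PNA2 at 72 h (exact permutation p = 0.914 and 0.349). LDHA made up 20.4% ± 6.52 of LDHA plus LDHB in libraries labelled PNA2 at 72 h and 22.9% ± 3.00 in PBS (n = 5 each, exact permutation p = 0.460). At 48 h its share was 94.7% in libraries labelled PNA2, 94.1% in siRNA and 93.5% in PBS, from the uncertain LDHB values. None of the 9 share differences passed after adjustment. For HK2 in siRNA and at 72 h the unadjusted p was already the smallest possible, so these libraries could not have given a smaller one.

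**Figure D4:**
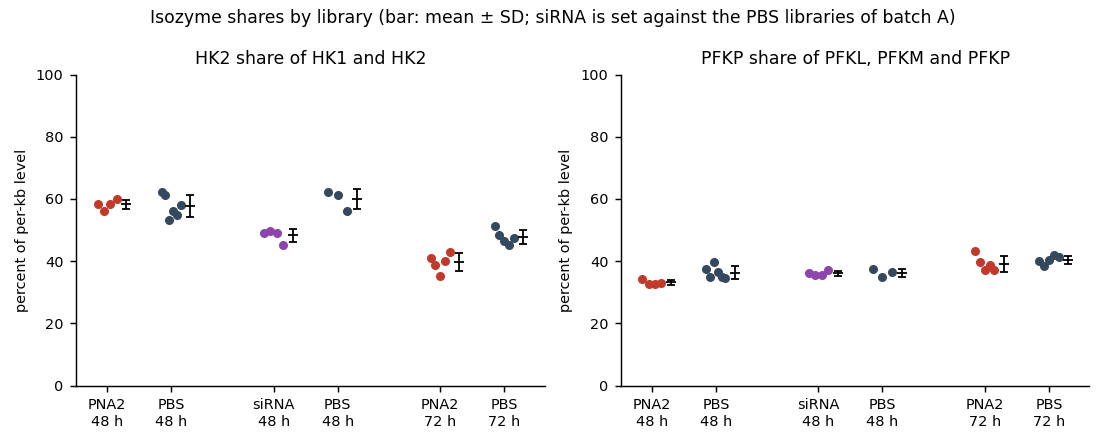
Share of the per-kilobase level of a step, in percent, taken by HK2 (of HK1 plus HK2, left) and PFKP (of the 3 phosphofructokinase transcripts, right), 1 point per library with the group mean ± SD, for libraries labelled PNA2 and PBS at 48 h, siRNA and the PBS libraries of its batch at 48 h, and libraries labelled PNA2 and PBS at 72 h. HK2 shares of siRNA at 48 h (mean 48.3%) and of PNA2 at 72 h (mean 39.7%) lie below those of their PBS libraries (59.9% and 47.8%).

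The members did not all vary together. Against their mean standardized log2 level over the 14 libraries of 48 h, with batch means removed, and the 10 libraries of 72 h, ENO1 had Pearson r of 0.96 and 0.91 and GPI 0.92 and 0.85. HK2 had 0.65 at 48 h and -0.74 at 72 h, and PFKM 0.73 and -0.37. Each member is part of that mean, and the libraries share their groups, so these values are descriptions. Among 11341 genes tested at both times, the 5 non-members most like the mean, by the lower of both r, were SLX9 (0.92), NUP93 (0.92), APEH (0.91), TIMM13 (0.90) and ARHGDIA (0.89). Of these, TIMM13 was called in libraries labelled PNA2 at 48 h (-0.33, limma adjusted p = 0.0466), and none was called in siRNA or at 72 h.

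Of the other glycolytic enzymes and isozymes, 9 of 18 listed genes passed the filter. At 72 h 2 rose in libraries labelled PNA2, where 12.1% of all genes were called higher. ALDOC, a second aldolase, averaged 464 in libraries labelled PNA2 and 304 in PBS (log2 fold change 0.60, limma adjusted p = 0.00250), and LDHB averaged 11704 in libraries labelled PNA2 and 9417 in PBS (0.31, adjusted p = 0.0316). TPI1, between aldolase and GAPDH, was at 0.24 (adjusted p = 0.170), and PKM, the pyruvate kinase after enolase, at 0.28 (adjusted p = 0.0686). At 48 h ENO2, the neuronal-type enolase, was lower in libraries labelled PNA2 (549, against 697 in PBS; -0.35, adjusted p = 0.0389) and higher in siRNA (947, against the same 697; 0.66, adjusted p = 0.00237). The mean of 697 covers PBS libraries of both batches, whereas all siRNA libraries are in batch A. The fitted differences include a batch term and so depart from these means. Between PNA2 and siRNA the list had 2 genes lower, ENO2 (-1.0, limma adjusted p = 8.62e-05) and PKM (-0.50, adjusted p = 0.0222). In that contrast 11.5% of all genes were called lower.

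Among 9 glucose and lactate transport genes, SLC2A5, a fructose transporter, fell in libraries labelled PNA2 at 48 h (-0.68, limma adjusted p = 0.00430) and at 72 h (-0.48, adjusted p = 0.010) and rose in siRNA (0.52, adjusted p = 0.0290). The list had 0 genes higher and 2 lower in libraries labelled PNA2 at 48 h, 3 higher and 2 lower in siRNA, and 1 higher and 1 lower at 72 h. SLC16A1, the lactate exporter MCT1, was lower in siRNA (-0.34), and BSG, its chaperone, was higher there (0.23) and at 72 h (0.38). SLC2A1, the main glucose transporter of dividing cells, was not called, at 0.00 and -0.23 in PNA2 and siRNA at 48 h and 0.22 at 72 h. Of 9 tested regulators of glycolytic flux, 2 were higher and 1 lower in libraries labelled PNA2 at 48 h, 4 higher and 1 lower in siRNA, and 1 higher at 72 h. Beside these and the transport counts, 8.11% of all genes were higher and 8.04% lower in PNA2 at 48 h. The shares were 8.72% and 8.52% in siRNA and 12.1% and 11.7% at 72 h. No regulator called lower at 48 h is named here. HIF1A, the oxygen-regulated subunit of the hypoxia factor, was among those higher at 48 h, at 0.23 in libraries labelled PNA2 and 0.70 in siRNA, as was TXNIP, an inhibitor of glucose uptake, at 0.27 and 0.43. PFKFB2 (0.43) and PFKFB3 (0.27), which make the phosphofructokinase activator fructose 2,6-bisphosphate, were higher in siRNA.

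Of 6 pentose phosphate pathway genes, whose pathway draws on glucose 6-phosphate to make NADPH and ribose, all passed the filter, and 4 rose at 72 h in libraries labelled PNA2: PGLS (0.72), RPIA (0.33), TKT (0.32) and TALDO1 (0.36). Their groups did not overlap, and the list's median was 0.33. Among all genes 12.1% were called higher and 10% had every PNA2 value above every PBS value. At 48 h TKT was lower in libraries labelled PNA2 (-0.28) and RPIA lower in siRNA (-0.48). Of 12 tested genes of pyruvate entry into mitochondria, PDK2, a kinase that inhibits pyruvate dehydrogenase, rose in libraries labelled PNA2 at 48 h (0.42, limma adjusted p = 0.0128) and at 72 h (0.71, adjusted p = 0.00585), in both cases without overlap. MPC2, a subunit of the mitochondrial pyruvate carrier, was higher at 72 h (0.42) and in siRNA (0.40). PCK2, the mitochondrial enzyme that makes phosphoenolpyruvate from oxaloacetate, was higher in libraries labelled PNA2 at both times (0.93 and 0.47). FBP1, which reverses the phosphofructokinase step, was higher in siRNA (0.89) and at 72 h (0.49).

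Hypoxia-induced genes outside glycolysis gave no single direction. Of 16 tested at 48 h, 1 was higher and 3 lower in libraries labelled PNA2, and 2 higher and 2 lower in siRNA. Of 15 tested at 72 h, 3 were higher and 0 lower. Among all genes, 8.11% were higher and 8.04% lower in PNA2 at 48 h, and 8.72% and 8.52% in siRNA. At 72 h the shares were 12.1% and 11.7%. ADM fell (-0.50) and DDIT4 rose (0.59) in libraries labelled PNA2 at 48 h, BNIP3L rose (0.49) and MXI1 fell (-0.85) in siRNA, and DDIT4 (0.56), FAM162A (0.48) and BNIP3 (0.30) rose at 72 h.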

How the data were processed

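The libraries of cells labelled U2932 were grouped as labelled, with 4 PNA2, 4 siRNA and 6 PBS libraries at 48 h and 5 PNA2 and 5 PBS libraries at 72 h. The submitters' processing notes name Trimmomatic, HISAT2 2.2.1, SAMtools 1.7, HTSeq 0.11.0, DESeq2 and GRCh38. Whether counting used strand is not given in the sources used here. The 72 h table was deposited as signal, that is, the authors' read counts over 1 size factor for each library. Whole reads came back in 100% of its values, within 0.01. The 48 h table was deposited in another unit, with counts that the authors had adjusted gene by gene for batch but had not scaled for depth. In 5099 of its genes a value is below 0. The labels name no batch, so batches were read from tied low values over 6675 genes. Pairs of libraries in the same batch tied in at least 14.05% of these genes, and pairs from different batches in 0%. All siRNA libraries are in batch A. A pair of control columns shares one header, and those libraries are called unnumbered controls 6 and 7.

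Genes were matched by Ensembl ID. The symbol of PGK1 is altered in both tables (PGK 1.00), and the other 9 members also match by symbol. For 48 h, negative values became 0, each library was divided by its TMM scale (edgeR 4.0.16), and log2 of value plus 1 was modelled on group and batch with limma 3.58.1 (trend on, R 4.3.3). For 72 h, log2 of the deposited value plus 1 was modelled on group only. Folds are on that scale and understate the change of low genes. Genes entered with 10 or more in 4 libraries (48 h) or 5 libraries (72 h). Two-sided p-values were adjusted by Benjamini-Hochberg over every gene tested; a gene is called below 0.05, and sizes carry 95% confidence intervals. The scripts were tested on simulated data. Counts of recovered reads were also tested with edgeR and DESeq2 1.42.0 as alternatives. Figures were drawn with matplotlib 3.10.9.

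Named genes were all 10 members, MYC, called genes of the other lists, and the 5 non-members most like the members. The members and lists were chosen with earlier results of these data known. A gene of 1 of the other lists is not reported here. Alternatives covered scaling, batch term, batches, pseudocount, filter, libraries entering, the replicate block and leaving out each library, and 1 (numbered libraries only) was chosen after seeing the data. Precision rests on the number of libraries and the totals given in the report.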

Additional observations from a re-analysis of the deposited data

Results flagged for a closer look

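Of 50 sets of member values searched, each 1 member in 1 group, 2 held a library far from the rest. Chance gives about 1 in 20, so this count is not above chance. The sets share libraries and are not independent. Both flagged values came from library PNA2 2 of 48 h, in 2 of the 10 sets that hold it. LDHA stood at 3433 in PNA2 2, against 6295 to 6451 in the other 3 and 6378 to 8023 in PBS. ENO1 stood at 23541 in PNA2 2, against 29817 to 30351 in the other 3 and 25557 to 34601 in PBS.

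The HK2 difference from PBS at 48 h was not the same for both reagents. The PNA2 difference minus the siRNA difference was 0.69 on the log2 scale (SE 0.14, limma adjusted p = 0.00272), with every library labelled PNA2 above every siRNA library. Both differences used the same PBS libraries.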

How the results depend on the processing

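Members called at 48 h in libraries labelled PNA2 (3) numbered 0 without rescaling, 0 without rescaling and batch term, 1 within batch B, 1 with only the groups compared, 0 with the replicate block and 1 with numbered libraries only, an alternative added after seeing the data. All genes called (2284) numbered 839 within batch B, 978 with only the groups compared and 737 with the block. Members called in siRNA (1) numbered 2 with quantile normalization, 2 with batches aligned on their controls, 2 within batch A and 5 with only the groups compared. All genes called in siRNA (2437) numbered 1184 without the batch term, 1395 without it and rescaling, 3788 with batches aligned, 4644 with only the groups compared and 955 with the block. Members called between PNA2 and siRNA (1) numbered 4 with quantile normalization, 2 within batch A, 2 with only the groups compared and 0 with the block. All genes called there (3325) numbered 1785 without rescaling, 1195 without rescaling and batch term and 1730 with the block. Without rescaling, the median of all genes moved to 0.19 in PNA2 and 0.22 in siRNA, and the calls to 2014 higher and 167 lower in PNA2 and 2124 and 74 in siRNA.

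The replicate numbers did not pair the samples: deviations of same-numbered libraries correlated at -0.04 to 0.11 at 72 h, -0.35 to 0.09 for PNA2 and -0.07 to 0.05 for siRNA at 48 h. With the block the HK2 call between PNA2 and siRNA was 0.67 (limma adjusted p = 0.0553). At 72 h the block left 5 members and 2769 of 2849 genes called. Quantile normalization turned round GAPDH at 48 h in PNA2 (-0.47) and between PNA2 and siRNA (-0.46), ENO1 between PNA2 and siRNA (-0.44), and GAPDH (-0.11) and ENO1 (-0.16) at 72 h, and the cause was not tested.

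Leaving out 1 library at a time gave 1 to 2 members called in PNA2 at 48 h and 1 to 2 between PNA2 and siRNA. It gave 1 member in siRNA and 5 to 6 at 72 h. All genes called ran from 1689 to 3024, 2504 to 3910, 1190 to 2516 and 2082 to 3314 in these comparisons. The low end in siRNA was reached without PBS 2. The HK2 share difference ran from -0.38 to 1.23 points in PNA2 at 48 h, from -13.5 to -10.4 in siRNA and from -9.00 to -7.06 at 72 h. The PFKP share difference ran from -3.62 to -2.31, from -0.80 to 0.53 and from -2.29 to -0.72 points, and the LDHA share difference from 0.50 to 1.71, from -0.99 to 1.44 and from -4.50 to -0.50. With the replicate block the HK2 share differences were -0.041, -9.96 and -8.13 points (exact permutation p = 0.875, 0.125 and 0.0625) and the PFKP difference in PNA2 at 48 h was -3.95 (exact permutation p = 0.125). The smallest exact permutation p that these numbered pairs allow is 0.125 at 48 h and 0.0625 at 72 h. The block could therefore not give a p below 0.05 for any share. Some same-numbered pairs of 48 h also lay in different batches. Without division by length the PFKP difference was -2.74 in PNA2 at 48 h (exact permutation p = 0.06) and 0.37 in siRNA.

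Over the 10 members, 168 of 180 values at 72 h and 191 of 240 in PNA2 at 48 h kept direction and side of the threshold. So did 204 of 230 in siRNA and 184 of 210 between PNA2 and siRNA. These totals include members that were not called and stayed so. Of the members called in PNA2 at 48 h, PFKM kept its call under 15, PFKP under 20 and PGAM1 under 5 of 24 alternatives.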
